A study of Mus musculus with 2 samples.

Results

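Developing red cells take up iron bound to transferrin, move it from the endosome to the mitochondrion and insert it there into porphyrin to make heme. The 8 mouse genes described here encode proteins of that route: Tfrc, Steap3 and Slc11a2 at the cell surface and endosome, Slc25a37, Slc25a28 and Abcb10 for iron entry into the mitochondrion, and Slc25a38 and Tmem14c for the glycine and porphyrin side of heme synthesis. They were taken by symbol as a set of genes of this route, and all 8 were found among the 43346 genes measured. Their levels come from whole livers taken at embryonic day 15.5 from B6NCrl mice, profiled by total RNA sequencing in 2 libraries of a single group. Replicate 2 was a pool of livers from 62 embryos and replicate 1 a pool from 78 embryos, with both sexes in each pool and no treated, mutant or control group. The input to a library was 10 ng of RNA longer than 200 nt, and both received synthetic spike-in RNAs. The libraries held 44200863 expected counts in replicate 2 and 34039441 in replicate 1 without spike-ins.

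Transferrin enters the endosome on its receptor and releases ferric iron there, which a ferrireductase turns into ferrous iron for export to the cytosol. Mitoferrins carry iron across the inner mitochondrial membrane, where ferrochelatase inserts it into protoporphyrin. The first step of the porphyrin pathway also needs glycine inside the mitochondrion. At this stage of gestation the liver is the main site of red cell production, and iron-regulatory proteins that bind stem-loops in messenger RNA tie the stability or translation of several of these transcripts to the iron content of the cell.

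These stem-loops are called iron-responsive elements. Matches to them are shown first because the transcript forms of Tfrc and Slc11a2 described below differ in whether they hold one. Annotated 3′ UTRs were searched on the transcribed strand for an unpaired C, then 5 bases, then the loop CAGTGN, with those 5 bases able to pair with the 5 bases after the loop. Tfrc held 4 matches on the plus strand of GRCm38. Each is printed 5′ to 3′ with the unpaired C and the loop in capitals.
Tfrc, chr16:32631219-32631247: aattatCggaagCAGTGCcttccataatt
Tfrc, chr16:32631598-32631626: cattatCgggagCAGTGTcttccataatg
Tfrc, chr16:32631663-32631691: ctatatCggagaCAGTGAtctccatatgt
Tfrc, chr16:32631710-32631738: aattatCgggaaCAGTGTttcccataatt
The same pattern occurred in 3′ UTRs of 129 of 20962 genes, or 0.615%, and in those of 1 of the 8 genes. In 5′ UTRs it occurred in 31 of 20582 genes, or 0.151%, and in none of the 8. Of a list of 60 partner genes of iron and heme handling, 58 had a 5′ UTR that could be searched, and 4 held a match there: Alas2, Fth1, Ftl1 and Slc40a1. With 1 unpaired base allowed in the stem, a setting chosen after the data were seen, 357 of 20962 genes matched in the 3′ UTR, or 1.70%, and Slc11a2 became the second of the 8. Its match lies on the minus strand of GRCm38.
Slc11a2, chr15:100395153-100395181: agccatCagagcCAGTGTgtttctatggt
A match is a description of the letters and not a measured binding site.

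The 8 genes spanned more than 2 orders of magnitude in level. Tmem14c stood highest and Slc25a28 lowest, 173-fold apart in replicate 2 and 149-fold in replicate 1. Levels are in TPM, an abundance corrected for transcript length and library total, computed with spike-ins left out. The 8 summed to 1650.1 TPM in replicate 2 and 1692.8 TPM in replicate 1, or 0.167% ± 0.00302 of all TPM (SD, n = 2). Tmem14c and Slc25a37 together held 62.6% of that sum in replicate 2 and 62.5% in replicate 1, while the 3 uptake genes Tfrc, Slc11a2 and Steap3 held 21.6% and 20.7%. Of the 8, 5 exceeded 100 TPM in both libraries, against a median of 10.7 TPM over the 12331 detected genes, those with at least 1 TPM in each library. The lowest of these 5, Slc25a38, ranked 820 by mean level among the 43346 genes measured. By mean level the order was Tmem14c, Slc25a37, Tfrc, Abcb10, Slc25a38, Steap3, Slc11a2 and Slc25a28. In 6 of the 7 neighbouring pairs the ranges over the 2 libraries did not overlap; the exception was Steap3 and Slc11a2, 1.07-fold apart in each library with overlapping ranges. The tissue was mixed, and in bulk RNA a smaller share of cells of a type cannot be told apart from less RNA per cell. All 10 red cell and all 8 hepatocyte marker genes were detected. So were all 7 macrophage, 5 granulocyte, 5 megakaryocyte, 6 endothelial, 5 stellate and 4 muscle marker genes. Detection therefore does not tell these cell types apart. The granulocyte marker genes summed to 5315 TPM in replicate 2 and 4829 TPM in replicate 1.

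**Figure D1:**
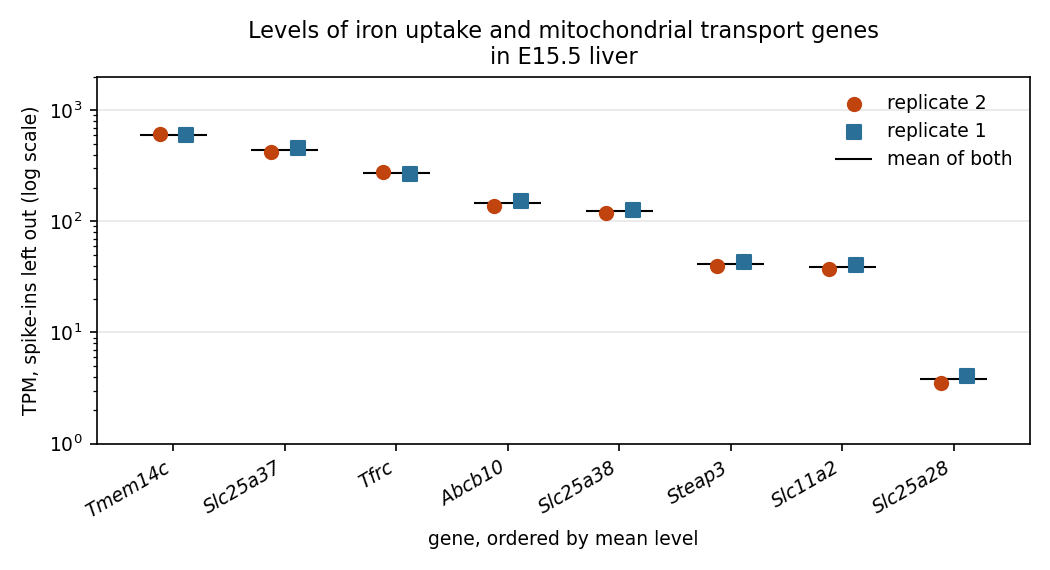
Level of each of the 8 genes in TPM with spike-ins left out (vertical log axis), with replicate 2 as circles, replicate 1 as squares and the mean of both as a line; genes run by mean level from left to right. Tmem14c has a mean of 604 TPM and Slc25a28 one of 3.77 TPM, and the only neighbours with overlapping ranges are Steap3 and Slc11a2.

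Of the uptake genes, Tfrc, the receptor that brings transferrin-bound iron into the cell (ENSMUSG00000022797; GRCm38 chromosome 16, 32608920 to 32632794, plus strand), was by far the most abundant. It measured 279 TPM in replicate 2 and 266 TPM in replicate 1, a mean of 273 ± 8.83 TPM (SD, n = 2) that lay above 97.1% of detected genes. It rested on 45228 expected counts in replicate 2 and 31503 in replicate 1. Tfr2, its paralog that senses transferrin in hepatocytes and red cell precursors, measured 41.5 TPM in replicate 2 and 48.6 TPM in replicate 1. Tfrc therefore exceeded Tfr2 6.72-fold in replicate 2 and 5.48-fold in replicate 1.

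Steap3, the endosomal ferrireductase of red cell precursors (ENSMUSG00000026389; chromosome 1, 120190757 to 120272705, minus strand), measured 39.8 TPM in replicate 2 and 43.3 TPM in replicate 1. Its mean of 41.5 ± 2.43 TPM (SD, n = 2) lay above 81.0% of detected genes. The other members of its metalloreductase family were each lower in both libraries: Steap4 at 5.97 TPM in replicate 2 and 6.40 TPM in replicate 1, Steap2 at 4.93 and 5.18 TPM in replicates 2 and 1, and Steap1 at 4.03 and 3.44 TPM. Steap3 exceeded Steap4 6.68-fold in replicate 2 and 6.76-fold in replicate 1, and the ratio to Steap1 was 9.89 and 12.6 in the same order.

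Slc11a2, also called DMT1, which exports ferrous iron from the endosome to the cytosol (ENSMUSG00000023030; chromosome 15, 100387898 to 100425072, minus strand), measured 37.3 TPM in replicate 2 and 40.5 TPM in replicate 1. Its mean was 38.9 ± 2.27 TPM (SD, n = 2), above 79.8% of detected genes. Tfrc exceeded it 7.48-fold in replicate 2 and 6.57-fold in replicate 1. Slc11a1, the paralog found in macrophage phagosomes, measured 13.0 TPM in replicate 2 and 15.8 TPM in replicate 1, so that Slc11a2 exceeded it 2.87-fold and 2.57-fold. The 7 macrophage marker genes were all detected and summed to 377 TPM in replicate 2 and 443 TPM in replicate 1; how much of the level of Slc11a2 such cells hold was not tested.

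Of the 2 mitoferrins, Slc25a37, or mitoferrin-1, the form required in mouse for iron entry into the mitochondria of developing red cells (ENSMUSG00000034248; chromosome 14, 69241848 to 69285112, minus strand), measured 423 TPM in replicate 2 and 461 TPM in replicate 1. Its mean of 442 ± 27.1 TPM (SD, n = 2) lay above 98.4% of detected genes. Slc25a28, or mitoferrin-2, the form found more widely outside red cells (ENSMUSG00000040414; chromosome 19, 43663801 to 43674881, minus strand), measured 3.53 TPM in replicate 2 and 4.02 TPM in replicate 1. That mean of 3.77 ± 0.346 TPM (SD, n = 2) lay above 24.3% of detected genes and rested on 210 expected counts in replicate 2 and 177 in replicate 1. The paralogs thus stood 119.7-fold apart in replicate 2 and 114.7-fold in replicate 1. The ratio on the log2 scale was 6.87 ± 0.04 (SD, n = 2).

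Slc25a37 was also higher than the receptor at the start of the route, by 1.51-fold over Tfrc in replicate 2 and 1.73-fold in replicate 1. Its locus overlaps 4 annotated genes, 3 of them on the opposite strand, and whether counting used the strand is not given in the sources used here. Of these, Gm20236, on the same strand, was listed with 171 expected counts in replicate 2 and 154.5 in replicate 1, beside 74214 and 59801 for Slc25a37. On the opposite strand Gm31748 had 100.7 expected counts in replicate 2 and 45.5 in replicate 1, Gm27222 had 67.1 and 61.2, and Gm27223 had 0 in both.

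Abcb10, an ABC transporter of the inner mitochondrial membrane that is known in mouse to stabilise mitoferrin-1 (ENSMUSG00000031974; chromosome 8, 123952459 to 123983122, minus strand), measured 137 TPM in replicate 2 and 153 TPM in replicate 1. Its mean was 145 ± 11.3 TPM (SD, n = 2), above 94.3% of detected genes. Of its relatives among mitochondrial ABC transporters, Abcb6 measured 56.2 TPM in replicate 2 and 58.9 TPM in replicate 1, and Abcb8 measured 22.3 TPM and 27.2 TPM. Abcb10 exceeded Abcb6 2.44-fold in replicate 2 and 2.60-fold in replicate 1, and Abcb8 6.16-fold and 5.62-fold. A long gene on the opposite strand, Gm20388, spans the Abcb10 locus and was listed with 0 expected counts in replicate 2 and 279 in replicate 1.

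Slc25a38, the carrier that supplies glycine for the first step of heme synthesis (ENSMUSG00000032519; chromosome 9, 120110374 to 120124504, plus strand), measured 120.1 TPM in replicate 2 and 127 TPM in replicate 1. Its mean of 123 ± 4.76 TPM (SD, n = 2) lay above 93.4% of detected genes. Alas2, the red cell enzyme that uses this glycine, exceeded its carrier 10.8-fold in replicate 2 and 11.5-fold in replicate 1. Slc25a39, a mitochondrial glutathione carrier of the same family, was higher than Slc25a38, at 419 TPM in replicate 2 and 488 TPM in replicate 1. The level of Slc25a38 was 0.287 of that of Slc25a39 in replicate 2 and 0.260 of it in replicate 1.

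Tmem14c, an inner mitochondrial membrane protein needed for porphyrin transport in mouse red cell precursors (ENSMUSG00000021361; chromosome 13, 41016292 to 41022586, plus strand), led the set with 611 TPM in replicate 2 and 598 TPM in replicate 1. Its mean of 604 ± 9.17 TPM (SD, n = 2) ranked 124 among all genes. Tmem14a, of the same family, measured 2.98 TPM in replicate 2 and 3.29 TPM in replicate 1. Tmem14c exceeded it 205-fold in replicate 2 and 181-fold in replicate 1. These ratios rest on 137 expected counts of Tmem14a in replicate 2 and 111 in replicate 1. The mean log2 ratio of 7.59 became 7.19 with a pseudocount of 1 TPM. Tmem14c also exceeded Tfrc 2.19-fold in replicate 2 and 2.24-fold in replicate 1.

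The 2 pools gave close values for all 8 genes. None of the 7 with 5 TPM or more in either library differed by more than 2-fold between replicate 2 and replicate 1 on the log2(TPM + 1) scale, against 59 of all 8781 genes at that level, a background of 0.672%. Among the 7 the widest difference on this scale was -0.16, for Abcb10, and they had a median absolute difference of 0.12 beside 0.11 over all 8781 genes. By TPM 2 of the 8, Tfrc at a log2 difference of 0.07 and Tmem14c at 0.03, were higher in replicate 2 and the other 6 were lower, but with spike-in scaling, which moves the median of all genes by 0.18, all 8 were higher in replicate 2, by 0.01 to 0.29. The exact 95% counting interval of the ratio excluded no difference for 7 of the 7, a rule met by 4829 of the 8781 genes, or 55.0%. This interval narrows as counts rise: Tmem14c met the rule at 0.03, with 21692 expected counts in replicate 2 and 15750 in replicate 1. Meeting it is therefore no sign of a wider difference than in other genes. That interval is built from the counts alone and holds no spread between pools. PCR copies were not marked by molecular identifiers and reads are then not independent, so the interval can be too narrow even for counting error. For Slc25a28, which was below 5 TPM, it ran from -0.48 to 0.11 on the log2 scale, so no difference was detectable at this depth.

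The red cell marker genes summed to 3113 TPM in replicate 2 and 3327 TPM in replicate 1, a log2 difference of -0.10. The median log2 difference of the 7 genes was -0.12, beside -0.04 over all genes at that level. The hepatocyte marker sum differed by -0.27 on the log2 scale, with 23847 TPM in replicate 2 and 28750 TPM in replicate 1. All 4 muscle marker genes were detected and summed to 327 TPM in replicate 2 and 202 TPM in replicate 1, while the 4 exocrine pancreas genes summed to 11.9 TPM in replicate 2 and 23.3 TPM in replicate 1, with 2 of them detected and Pnlip at 0 in both libraries. The part of these cell types in the small differences of the 8 genes was not tested.

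**Figure D2:**
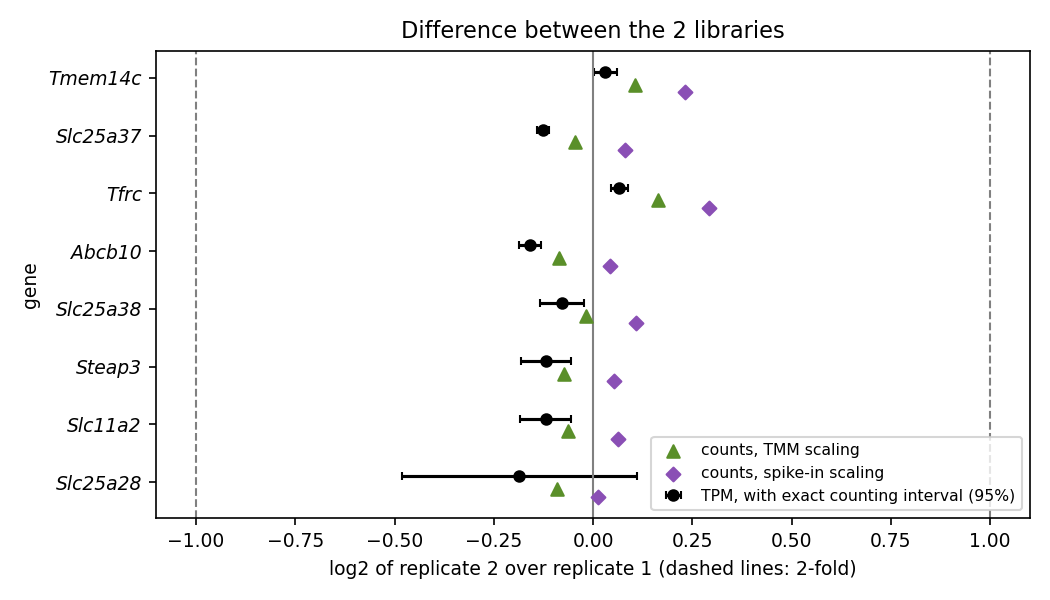
The log2 ratio of replicate 2 over replicate 1 for each of the 8 genes (horizontal axis) from TPM without a pseudocount, with the exact 95% counting interval as a bar, and from counts scaled by TMM or by spike-ins. All points lie well inside the dashed lines at 2-fold; by TPM and by TMM scaling 2 genes lie above 0 and 6 below it, while by spike-in scaling all 8 lie above it.

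The transcript tables give the forms in which these genes were read. They hold several annotated forms for 5 of the 8, and in each of the 5 the same form led in both libraries. Among these, Slc25a37 had the highest leading share: its protein-coding form Slc25a37-201 held 92.6% of the gene's TPM in replicate 2 and 93.0% in replicate 1. Tmem14c, Abcb10 and Slc25a28 were listed with a single form each, although the later annotation M21 gives Slc25a28 5 forms. For Tfrc 6 forms were listed, against 7 in M21, so its shares cover the listed forms only. The listed form of Slc25a28 was 1514 nt long, against 1535 nt in M21, and that of Tmem14c 945 nt against 914 nt. The levels of both rest on the forms listed, and the searches of UTRs on those of M21. These shares are estimates from short reads that the forms mostly have in common.

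Of the 8 genes, only Tfrc, Slc25a37 and Slc11a2 have listed retained-intron transcripts, and among these Tfrc had the largest share. Its full coding form Tfrc-201 held 58.0% in replicate 2 and 54.9% in replicate 1. The retained-intron form Tfrc-204, which begins inside the gene at 32624442 and runs to nearly the same 3′ end, held 27.2% in replicate 2 and 29.2% in replicate 1. By expected counts Tfrc-204 held 24.2% in replicate 2 and 26.4% in replicate 1. In all, retained-intron forms held 34.2% ± 1.59 of Tfrc TPM (SD, n = 2). Retained intron is the annotated class of these forms. Whether their reads came from unspliced RNA, which total RNA can hold, was not tested. The background was protein-coding genes with 5 TPM or more in both libraries and 2 or more listed transcripts. Of 6024 such genes, 3593 had a retained-intron form. Over these 3593 the median share was 5.58% and the upper quartile 16.5%. Tfrc lay at the 90.1 percentile and Slc25a37 at the 54.0 percentile of them. The 4 stem-loop matches printed above lie in both Tfrc-201 and Tfrc-204, which together held 85.2% of Tfrc TPM in replicate 2 and 84.1% in replicate 1. Tfrc-202, which ends upstream at 32623741 and holds none of the 4, made up 6.92% in replicate 2 and 7.60% in replicate 1.

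In Slc11a2 the leading form held no stem-loop match under either search. This form, Slc11a2-201, ends at 100387898 and accounted for 67.1% in replicate 2 and 68.7% in replicate 1. Slc11a2-205 ends at 100392563 and is the one form with the match printed above, found when 1 unpaired base was allowed. It accounted for 16.7% of TPM in replicate 2 and 16.0% in replicate 1, a mean of 16.3% ± 0.463 (SD, n = 2). By expected counts its share was higher, at 26.2% in replicate 2 and 24.9% in replicate 1. The 3 forms with starts upstream of Slc11a2-201 and Slc11a2-205, at 100425072, 100424214 and 100424092, had an estimated 0 counts in both libraries. Reads are shared among overlapping forms, so the authors' credibility bounds limit them: the highest upper bound, for Slc11a2-207, was 0.761 TPM in replicate 2 and 0.703 TPM in replicate 1. The form annotated for nonsense-mediated decay, Slc11a2-204, was listed at 4.60 TPM in replicate 2 and 2.57 TPM in replicate 1. It is 393 nt long and rested on 56.89 expected counts in replicate 2 and 23.55 in replicate 1. The authors' credibility bounds for it, 2.18 to 7.47 TPM in replicate 2 and 0.609 to 5.13 TPM in replicate 1, overlapped.

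Steap3 was read mostly from 1 of 4 starts among its annotated forms. The forms starting at 120265255 to 120265284, Steap3-202 and Steap3-205, held 84.8% of its TPM in replicate 2 and 85.5% in replicate 1. The starts farther upstream, at 120270423, 120271082 and 120272705, held means of 5.37%, 5.40% and 4.08%. Within the leading start, Steap3-202 alone held 78.8% in replicate 2 and 85.1% in replicate 1, since Steap3-205 was listed at 2.41 TPM in replicate 2 and 0.166 TPM in replicate 1, again with overlapping credibility bounds.

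The 150 bases before the leading start and before an upstream start are shown because their forms held such unequal shares. They come from RefSeq promoter windows on GRCm38.p6, minus strand, which were present for 6 of the 8 genes, Slc25a37 and Slc11a2 being the others. Capitals mark GATAA or AGATAA, a core of the motif bound by the red cell factor GATA1, on either strand.
Steap3 leading start, chr1:120265287-120265436: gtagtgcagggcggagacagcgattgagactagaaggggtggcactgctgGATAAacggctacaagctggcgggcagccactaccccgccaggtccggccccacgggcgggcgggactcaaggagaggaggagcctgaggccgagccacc
Steap3 upstream start, chr1:120271081-120271230: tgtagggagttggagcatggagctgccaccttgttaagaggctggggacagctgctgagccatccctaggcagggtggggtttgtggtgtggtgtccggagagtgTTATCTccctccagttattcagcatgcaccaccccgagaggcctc
GATAA occurred 1 time before each of these starts, and AGATAA before the upstream one alone of the pair. The windows of the other 2 Steap3 starts in RefSeq, at 120270270 and 120258878, held neither. GATAA on either strand occurred in 3 of 10 windows of the 6 genes and in 25.4% of 32851 RefSeq windows that run from 250 bases before to 50 bases after a start, AGATAA in 1 of 10 and in 11.2%, and CCNCNCCC, a motif of the kind bound by KLF1, in 8 of 10 and in 49.5%. The windows of 1 gene overlap or share a locus, so these are descriptions of letters and no measure of binding.

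The RNA of Slc25a38 was divided among coding and noncoding forms. Its coding form Slc25a38-201 held 55.9% in replicate 2 and 56.1% in replicate 1, and a shorter coding form, Slc25a38-202, held 12.5% and 13.5%. The noncoding form Slc25a38-207 held 19.4% in replicate 2 and 17.3% in replicate 1. All coding forms together held 69.0% ± 0.777 (SD, n = 2). The short forms weigh more by TPM than by reads: by expected counts Slc25a38-201 held 78.0%, and Tfrc-201 held 70.6% of Tfrc.

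**Figure D3:**
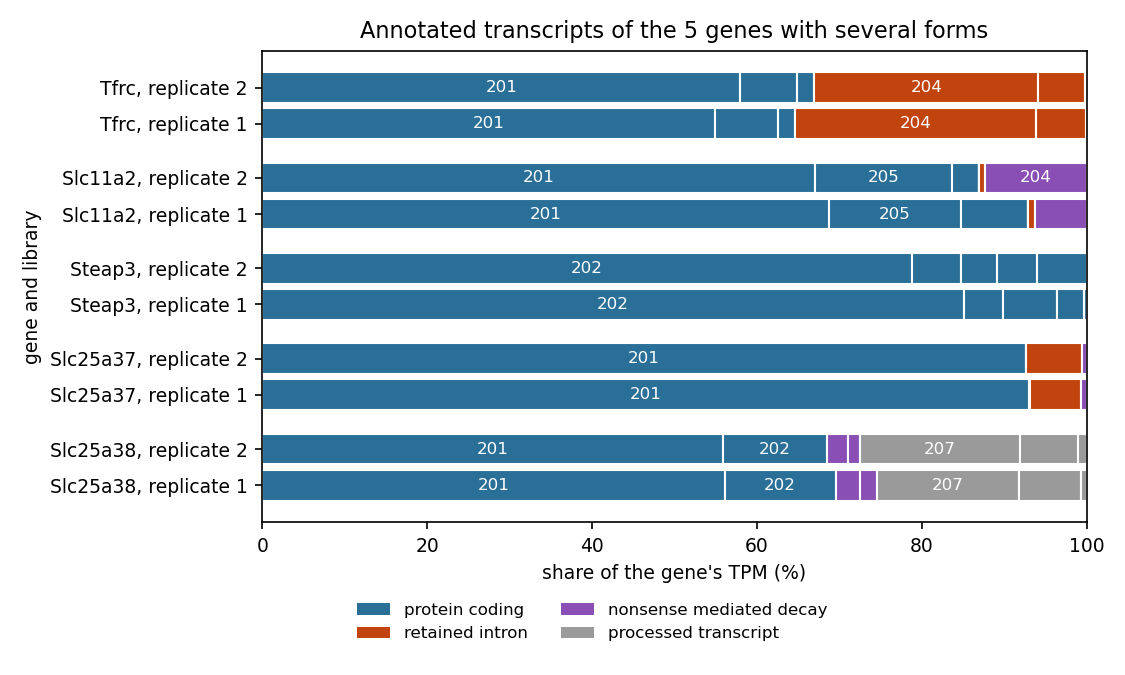
Share of each annotated transcript in its gene's TPM (horizontal axis, percent) for the 5 genes with several forms, replicate 2 above replicate 1, coloured by annotated class, with forms of 10% or more of the gene numbered. Slc25a37 is nearly all form 201, Tfrc has a large retained-intron share led by form 204, and Slc11a2 is mostly form 201 with a smaller share of form 205.

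The genes that work with these 8 were measured through the list of 60 partner genes. Of 59 found, 56 were detected, against 28.4% of all 43346 genes measured. The 43346 include noncoding genes, and the list was chosen with earlier results of these data known, so these shares are not a like comparison. None of the 51 partner genes at 5 TPM or more in either library differed by more than 2-fold between libraries, against the same background of 0.672%. Among the genes that sort the receptor in the endosome, Snx3, which recycles Tfrc to the surface, was highest at 240.5 TPM in replicate 2 and 232 TPM in replicate 1, a little below Tfrc. Vps35, of the same recycling coat, had 92.9 TPM in replicate 2 and 85.2 TPM in replicate 1. Slc40a1, the iron exporter ferroportin, had 134 TPM in replicate 2 and 147 TPM in replicate 1, below Slc25a37 and Tfrc and near Abcb10. The genes of the iron-regulatory proteins that bind the stem-loops differed in level. Aco1 had 31.8 TPM in replicate 2 and 40.7 TPM in replicate 1, with a mean above 78.6% of detected genes. Ireb2 had 7.77 TPM and 7.26 TPM in the same order, with a mean above 40.6% of them.

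Inside the mitochondrion, Glrx5, which serves iron-sulfur cluster assembly, had 576 TPM in both libraries, between Tmem14c and Slc25a37. Isca1, of the same process, had 212 TPM in replicate 2 and 217 TPM in replicate 1. Sfxn1, a serine carrier, had 50.4 TPM in replicate 2 and 49.1 TPM in replicate 1, below Slc25a38. Tspo and Tspo2, of the heme and porphyrin transport group, had 183 and 170 TPM in replicate 2 and 197 and 179 TPM in replicate 1. The heme exporter gene Flvcr1 was low, with 2.36 TPM in replicate 2 and 3.19 TPM in replicate 1. The 3 partner genes below 1 TPM in either library were Scara5, with 0.403 and 0.290 TPM in replicates 2 and 1, Heph, with 0.754 and 0.849 TPM, and Ftmt, with 0 counts in both, which allows up to 0.0679 CPM in replicate 2 and 0.0881 CPM in replicate 1.

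**Figure D4:**
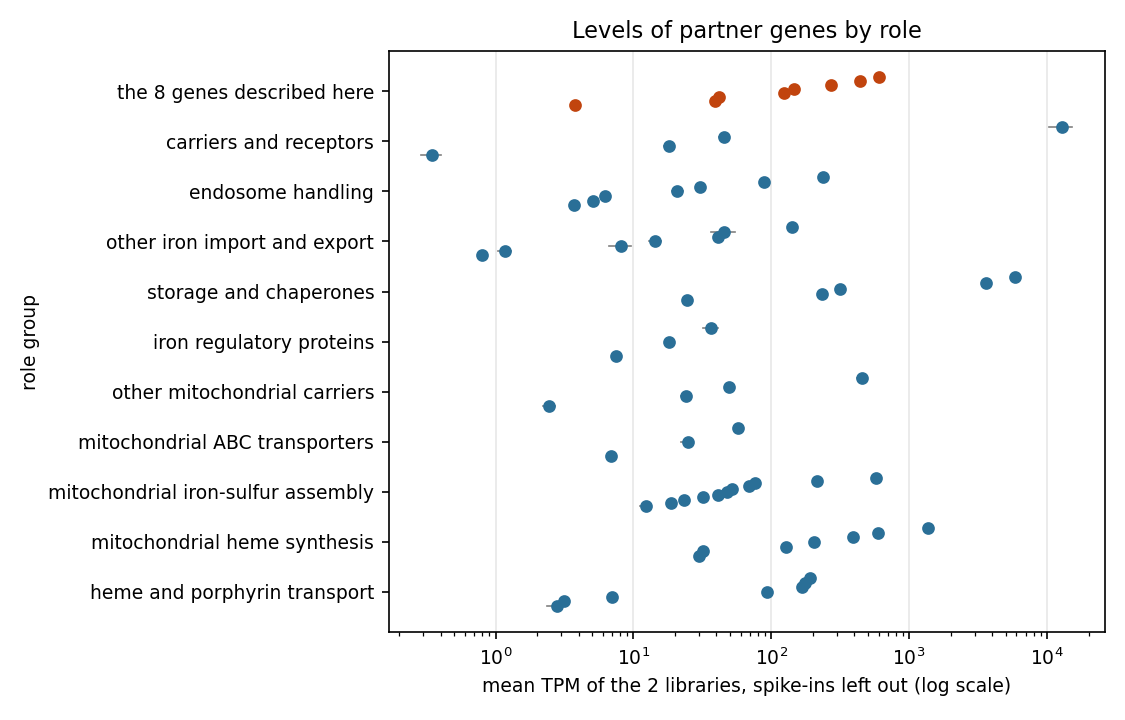
Mean TPM of the 2 libraries with spike-ins left out (horizontal log axis) for the 8 genes, in the top row, and for the partner genes by role, with lines for the range of both libraries; points are offset vertically in each row for legibility. The means of the 8 genes run from 3.77 to 604 TPM, and Ftmt, at 0, is not drawn.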

How the data were processed

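The authors deposited a table of genes and one of transcripts for each library. The expected counts as deposited estimate the reads of each gene or transcript and are unscaled. Deposited TPM, and posterior mean TPM with credibility bounds, are the authors' abundances corrected for length and library total, spike-ins included. Columns are named as RSEM writes them, per the file headers; assembly mm10 and annotation M4 are from the companion descriptions. Aligner, quantifier and strand of counting: not given in the sources used here.

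TPM was rescaled without the 97 spike-in entries, and 26248 entries with numeric identifiers, which held 24.94 expected counts in replicate 2 and 14.96 in replicate 1, were left out. Symbols and coordinates came from GENCODE M21 on GRCm38. Genes were found by identifier without version. Members and lists were chosen with earlier results of these data known. The genes named are the members, their fixed paralogs and, of each partner group, the 2 highest, the lowest and any past 2-fold; not all of these are printed, 1 paralog is not reported here, and the Gm genes were named for overlapping members and Pnlip as a marker at 0. Transcripts named hold at least 10% of a gene in either library; Tfrc-202, Steap3-205 and the minor Steap3 and Slc11a2 starts were named after their values were seen. Of 60 partner symbols 59 were matched.

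With 2 libraries of 1 group no test was possible; replicates were pools, so their spread is between pools. A chi-square of rounded counts gave 20.0 per degree of freedom over 15492 genes, so the tables are not copies of 1 library; the labels give 2 biological replicates. Differences are log2 of TPM + 1, for genes at 5 TPM or more in either library; the 95% interval of the count ratio is Clopper-Pearson. The limit that a count of 0 allows is 3 counts. The fold rule and the interval were run on simulated counts with counting error alone. These held no spread between pools, so the run cannot show how either behaves on these pools. Alternatives were posterior mean TPM, spike-ins in the total, expected counts, scaling factors from spike-ins, from edgeR 4.0.16 (TMM) and from DESeq2 1.42.0 (median of ratios), other pseudocounts, filters and limits, and each library alone. Work was done in R 4.3.3 and in Python 3.11.15 with SciPy 1.17.1, pandas 2.3.3, NumPy 2.4.6 and matplotlib 3.10.9.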

Additional observations from a re-analysis of the deposited data

How the results depend on the processing

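The summed level of the 8 genes, 0.167% of TPM, became 0.162% with spike-ins in the TPM total and 0.409% as a share of expected counts, which weighs genes by length; with each library alone it ran from 0.165% to 0.169%. The log2 ratio of Slc25a37 to Slc25a28, 6.87, became 6.54 with a pseudocount of 1 TPM and ran from 6.84 to 6.90 with each library alone. None of the 7 genes at 5 TPM or more passed the fold limit under any of the 7 alternatives tried, among them a limit of 1.5-fold. Slc25a28, below 5 TPM, was included when no filter on low values was set and did not pass there. The 6 separated neighbours and 5 leading transcripts were the same in number under each alternative run on them. Over all genes the 59 past 2-fold became 30 with TMM scaling, 30 with median-of-ratios scaling, 36 with spike-in scaling, 161 at a limit of 1.5-fold and 229 with no filter on low values. Detected partner genes numbered 58 at 0.1 TPM and 45 at 10 TPM, beside 56. The shares of all genes detected at 0.1 TPM and at 10 TPM are not reported here. Tmem14c averaged 595 TPM by posterior mean and 584 TPM with spike-ins in the total. Scaling by spike-ins turned the direction between libraries for 6 of the 8 genes; the cause was not tested. No paired analysis was possible because the 2 libraries form a single group. Slc25a28, with 210 and 177 expected counts in replicates 2 and 1, is the least precise of the 8.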
